A study of Mus musculus with 8 samples.

Results

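The miRNAs encoded in the Hox clusters were followed in mouse hepatocytes of the non-tumorigenic line 3A and in the extracellular vesicles (EVs) that they released. They were chosen by where their genes lie, though with earlier results of these data known. They are mmu-miR-10a-5p, mmu-miR-10b-5p, mmu-miR-196a-5p, mmu-miR-196b-5p and mmu-miR-615-3p, which makes 5 of the 1978 mouse mature miRNAs in the count table. At least 1 read was counted for 800 of these, and 180 were read in 2 or more libraries of each compartment, the condition for being tested. Of the 5, 4 were tested, because mmu-miR-615-3p had no EV reads.

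Hox clusters are tandem arrays of transcription factor genes that set position along the body axis, and the miRNA genes between them are often transcribed with their neighbours. A mature miRNA finds its target mRNAs mainly through its seed, the bases near its 5′ end, so miRNAs with the same seed are expected to share most targets. miR-196 is known for directing cleavage of the Hoxb8 mRNA and miR-10b for repressing Hoxd10, and miR-10b has been studied widely in invasive tumours. miRNAs also leave cells in EVs, where RNA-binding proteins take part in sorting them, and PCBP2, a poly(C)-binding protein, was silenced here to ask about its part in that sorting.

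Small RNA was sequenced in 8 libraries that form 4 groups of 2 replicates, with cells and EVs from each of shCTR and shPCBP2. All cells were infected with a retroviral pSUPER retro puro vector and selected with puromycin at 2 µg/mL, and carried either a scrambled shRNA (shCTR) or an shRNA against PCBP2 (shPCBP2). The EVs were purified by ultracentrifugation from medium conditioned for 72 h that contained EV-depleted serum. Every sample received cel-miR-39, a nematode miRNA, as a spike-in, and PCBP2 itself is not measured by small RNA libraries. Mouse miRNAs received 8745848 to 12732173 counts in the cell libraries and 503070 to 687592 in the EV libraries, and the spike-in 15734400 to 17821600 and 26033300 to 37548200. The 5 miRNAs held 1.42% to 1.53% of the mouse miRNA counts in cells and 0.716% to 1.05% in EVs. Reads carry no molecular identifiers here, so the Wilson intervals of shares and the floors cover counting error only, while intervals of log2 ratios come from the fit and cover the spread between libraries. With 2 replicates a group the p-values measure the spread between these libraries.

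Mature sequences are printed because the paralogues differ so little, with the seed (bases 2 to 8 from the 5′ end) in capitals. They were taken from RefSeq on GRCm38.p6, which had an entry for all 5 names and for 1679 of the 1978 miRNAs.
mmu-miR-10a-5p: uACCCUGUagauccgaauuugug
mmu-miR-10b-5p: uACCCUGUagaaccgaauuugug
mmu-miR-196a-5p: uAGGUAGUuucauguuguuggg
mmu-miR-196b-5p: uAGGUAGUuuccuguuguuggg
mmu-miR-615-3p: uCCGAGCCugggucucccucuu

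mmu-miR-10a-5p and mmu-miR-10b-5p share their seed and differ at a single base, U12A, counted from the 5′ end with the base of mmu-miR-10a-5p first. mmu-miR-196a-5p and mmu-miR-196b-5p also share a seed and differ by A12C, again at base 12. No other matched mouse miRNA has either seed, and mmu-miR-615-3p is alone with its own. Since 1 base separates the paralogues, a read with an error at base 12 can be assigned to the wrong one, and how often this happened was not tested. AUUA or AUUG is the core of a motif tied to the retention of miRNAs in cells. It was searched on the mature strand and is in none of the 5 sequences. It is held by 149 of the 1679 matched miRNAs (8.87%) and by 25 of the 156 matched among those tested (16.0%). A longer form of this motif and the export motif hEXO, which the authors also scanned, were not searched.

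The genes lie in all 4 Hox clusters of the mouse (GRCm38, GENCODE annotation). mmu-miR-10a-5p is at chr11:96317186-96317208 on the plus strand, between Hoxb5 and Hoxb4 and 1059 bases from Hoxb4, with no annotated gene over it. mmu-miR-10b-5p is at chr2:74726074-74726096 on the plus strand, in introns of transcripts of Hoxd3 and Hoxd4. mmu-miR-196a-5p has 2 genes with the same mature sequence, at chr11:96265187-96265208 between Hoxb13 and Hoxb9 and at chr15:102973365-102973386 between Hoxc10 and Hoxc9, both on the plus strand, and the counts cannot tell them apart. The second lies in an intron of a long Hoxc5 transcript. mmu-miR-196b-5p is at chr6:52230129-52230150 on the minus strand, 1047 bases from Hoxa10 and in an exon of a Hoxa9 transcript, and mmu-miR-615-3p is at chr15:103014969-103014990 on the plus strand, in an intron of Hoxc5.

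In cells, mmu-miR-196b-5p and mmu-miR-10a-5p were abundant and their paralogues were minor, and this order differed in EVs. Levels are given as counts per 1000000 spike-in reads (spike-in level) with the mean ± SD of 2 libraries, and they compare miRNAs of near-equal length (22 or 23 bases) without a correction for how well each is ligated. In cell shCTR the levels were 5438 ± 557 for mmu-miR-196b-5p, 4490 ± 93.9 for mmu-miR-10a-5p, 618 ± 127 for mmu-miR-196a-5p, 131 ± 2.27 for mmu-miR-10b-5p and 6.08 ± 3.36 for mmu-miR-615-3p. The ranges of neighbours in this order did not overlap. In cell shPCBP2 the levels were 4472 ± 1315 for mmu-miR-10a-5p and 4150 ± 514 for mmu-miR-196b-5p, which overlapped, then 233 ± 38.6, 52.2 ± 6.62 and 3.49 ± 1.01 for mmu-miR-196a-5p, mmu-miR-10b-5p and mmu-miR-615-3p. By count, mmu-miR-10a-5p ranked 25 to 33 and mmu-miR-196b-5p 25 to 28 among the miRNAs of a cell library, so both were among its more abundant miRNAs. mmu-miR-196a-5p ranked 75 to 92 and mmu-miR-10b-5p 125 to 144. In EVs the order was mmu-miR-10a-5p, mmu-miR-10b-5p and mmu-miR-196b-5p in both shCTR and shPCBP2, with mmu-miR-196a-5p read in 1 library of each. mmu-miR-10b-5p ranked 55 to 76 in the EV libraries and mmu-miR-196b-5p 65 to 81.

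**Figure D1:**
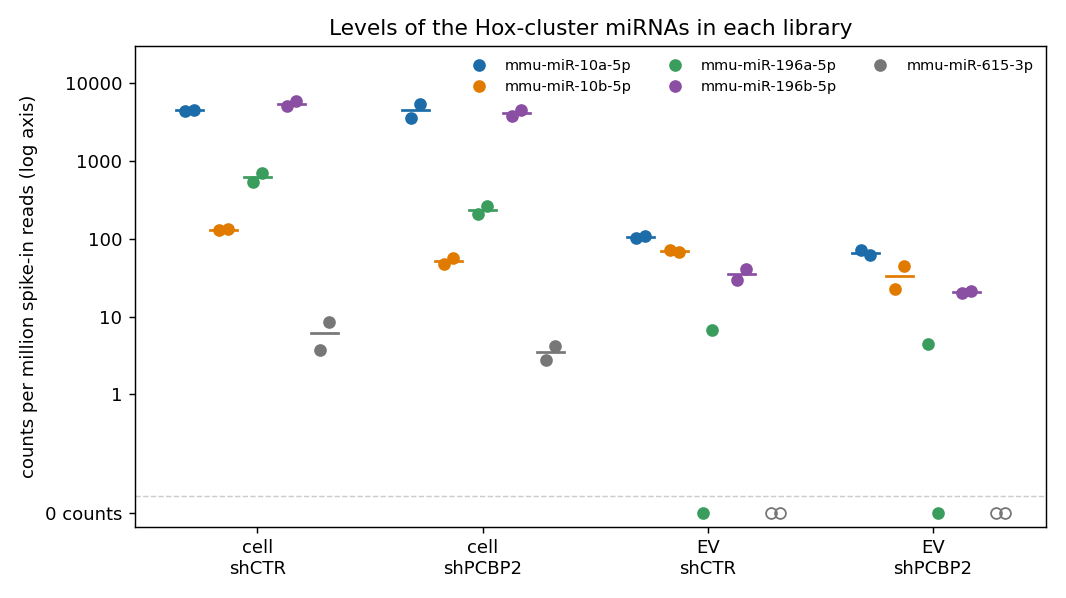
Spike-in level (counts per 1000000 spike-in reads, log axis) of the 5 Hox-cluster miRNAs in the 4 groups; each point is a library, horizontal bars are means of 2 libraries, and points under the dashed line are libraries with 0 counts (open where both libraries of the group had none). mmu-miR-10a-5p and mmu-miR-196b-5p lie at 3542 or more in every cell library and at 109 or less in every EV library, while mmu-miR-10b-5p lies between 22.4 and 132 in all 8.

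Per spike-in read, mmu-miR-10a-5p was far lower in EVs than in cells, as was the median tested miRNA (log2 EV/cell ratio -4.93 in shCTR). How much cell or EV material stood behind each spike-in read is not given. Folds between the compartments, here and below, depend on that amount. The spike-in levels of mmu-miR-10a-5p were 4424 and 4557 in shCTR cells and 3542 and 5402 in shPCBP2 cells. In EVs they were 102 and 109 with shCTR and 70.9 and 61.7 with shPCBP2. Every EV library was below every cell library, and the share of tested miRNAs for which this held was not computed. The log2 EV/cell ratio was -5.41 (standard error 0.27) in shCTR, a 42.6-fold lower level in EVs (Benjamini-Hochberg adjusted p = 8.08e-06, edgeR quasi-likelihood test). In shPCBP2 it was -6.08 (standard error 0.28), 67.4-fold lower (adjusted p = 5.83e-06, same test).

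mmu-miR-10b-5p, the paralogue that differs by U12A, differed far less between EVs and cells. Its spike-in levels were 129 and 132 in shCTR cells against 71.3 and 66.7 in shCTR EVs. With shPCBP2 they were 47.5 and 56.9 in cells against 22.4 and 44.7 in EVs. Within each shRNA the EV libraries were below the cell libraries, a separation whose share among the tested miRNAs was not computed. The log2 EV/cell ratio was -0.92 in shCTR and -0.64 in shPCBP2, each with a standard error of 0.59. In shPCBP2 it was -0.22 without EV shPCBP2 replicate 1 and -1.22 without replicate 2, so a single library set much of its size. Neither passed the test (Benjamini-Hochberg adjusted p = 0.195 and 0.363, edgeR quasi-likelihood test), and the 95% intervals of the log2 ratios ran from -2.36 to 0.51 and from -2.07 to 0.79.

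mmu-miR-196b-5p, the major miR-196, had the lowest EV/cell ratio of the members that were read in every library. Spike-in levels of 5044 and 5832 in shCTR cells and of 3787 and 4513 in shPCBP2 cells compared with 29.5 and 40.8 in shCTR EVs and 20.2 and 21.3 in shPCBP2 EVs. The log2 EV/cell ratio was -7.27 (standard error 0.27), 155-fold lower in EVs, in shCTR (Benjamini-Hochberg adjusted p = 4.49e-06, edgeR quasi-likelihood test) and -7.64 (standard error 0.28), 200-fold lower, in shPCBP2 (adjusted p = 3.66e-06, same test). From the bottom it ranked 13 and 12 among the 180 tested ratios.

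mmu-miR-196a-5p had spike-in levels of 528 and 708 in shCTR cells and of 206 and 261 in shPCBP2 cells. The shCTR EVs held 0 and 173 counts of it and the shPCBP2 EVs 167 and 0, so a library of each group held no read of it and the other well over 100. Counts between 1 and 40 made up 28 of 761 counts above 0 in EVs (3.68%), against 921 of 2179 in cells (42.3%). The log2 EV/cell ratios of mmu-miR-196a-5p were -7.54 (standard error 3.30) and -6.71 (standard error 3.18) in shCTR and shPCBP2 and did not pass the test (Benjamini-Hochberg adjusted p = 0.0843 and 0.105, edgeR quasi-likelihood test). With DESeq2 the adjusted p was 0.00564 and 0.0139, where 72.8% and 70% of the tested miRNAs were called lower in EVs. The edgeR call also turned with the EV library left out. In shCTR the log2 ratio was -6.54 and not called without EV shCTR replicate 1 (adjusted p = 0.116), and -7.54 and called without either EV shPCBP2 replicate (adjusted p = 0.0347), where 67.2% of the tested miRNAs were called lower. In shPCBP2 it was -5.71 and not called without EV shPCBP2 replicate 2 (adjusted p = 0.145), and -6.71 and called without EV shCTR replicate 1 or 2 (adjusted p = 0.0414 and 0.0417), where 65% were called lower. Without EV shCTR replicate 2 or EV shPCBP2 replicate 1, which held every EV read of their group, the only library left stands at 0, so no value is read from those fits.

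mmu-miR-615-3p was a rare miRNA of cells, with 66 and 133 counts in its shCTR libraries and 49 and 75 in those of shPCBP2, and with 0 counts in all EV libraries. Against a floor of 3 counts in each EV library, its level in cells was 54.4-fold the floor in shCTR and 39.1-fold in shPCBP2. The floor covers counting error only. An EV library held 0 counts of mmu-miR-196a-5p and its replicate 173, so these folds are not lower bounds. At the median EV/cell ratio of the tested miRNAs an EV library would hold 5.35 counts in shCTR and 3.98 in shPCBP2. The depth thus does not show that mmu-miR-615-3p was lower than most miRNAs. In an edgeR fit of all 800 miRNAs with reads, it was called lower in EVs (adjusted p = 0.00407 in shCTR and 0.00485 in shPCBP2), as were 34% and 34.1% of them.

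Taking the tested members together, 2 of 4 were called lower in EVs in shCTR and the same 2, mmu-miR-10a-5p and mmu-miR-196b-5p, in shPCBP2. Among all 180 tested miRNAs 59.4% and 60% were called lower, so these calls are near the background. Across the 180 the median log2 EV/cell ratio was -4.93 in shCTR and -4.90 in shPCBP2, and across the 4 members it was -6.34 and -6.39. Relative to the median of all tested miRNAs, the log2 ratio of mmu-miR-10b-5p was higher by 4.01 in shCTR and 4.26 in shPCBP2, and those of mmu-miR-10a-5p and mmu-miR-196b-5p differed from it by -0.48 and -2.34 in shCTR and by -1.18 and -2.75 in shPCBP2.

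The direction for mmu-miR-10b-5p depended on how the libraries were scaled, because EV libraries hold far fewer miRNA reads per spike-in read. Scaled to the miRNAs themselves, it was higher in EVs. In shCTR the log2 EV/cell ratio was 3.85 (standard error 0.47) with TMM factors, 3.86 (standard error 0.47) with size factors from medians of ratios and 4.07 (standard error 0.42) with the total miRNA count, and it was called each time (Benjamini-Hochberg adjusted p = 0.000977, 0.00100 and 0.000446, edgeR quasi-likelihood test). With these scalings 23.3%, 22.2% and 23.9% of the tested miRNAs were called higher in EVs. In shPCBP2 the ratios were 3.94, 4.15 and 4.53, called where 23.3%, 25% and 30% were called higher. These scalings moved the median of all tested miRNAs to between -0.33 and 0.30. The distance of mmu-miR-10b-5p from that median was between 4.01 and 4.02 in shCTR and between 4.23 and 4.28 in shPCBP2. Since a scaling shifts all miRNAs nearly alike, this distance is all but fixed by construction and is no check of the result. mmu-miR-10a-5p and mmu-miR-196b-5p stayed lower in EVs under every scaling, with mmu-miR-10a-5p at -0.42 and no longer called in shCTR with the total miRNA count (adjusted p = 0.0570).

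**Figure D2:**
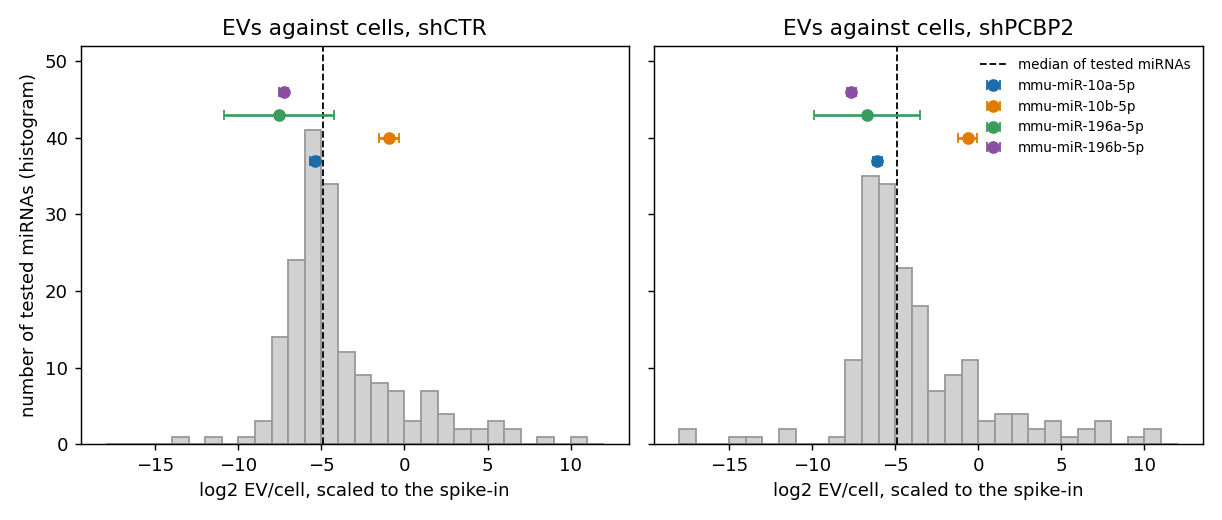
Log2 EV/cell ratio (spike-in scaling, x axis) in shCTR (left) and shPCBP2 (right); the grey histogram counts the 180 tested miRNAs, the dashed line is their median, and coloured points with bars are the 4 tested Hox-cluster miRNAs ± standard error (their height on the y axis has no meaning). mmu-miR-10b-5p lies at -0.92 and -0.64, to the right of the medians of -4.93 and -4.90, and the other 3 lie to the left.

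A ratio of 2 miRNAs within a library does not depend on the spike-in or on any scaling. Such ratios restate the divergence from the same counts and are no separate support for it. mmu-miR-10b-5p made up 2.84% and 2.82% of the miR-10 counts (mmu-miR-10a-5p and mmu-miR-10b-5p together) in cell shCTR, and 1.32% and 1.04% in cell shPCBP2. In EVs it made up 41.1% and 38.0% in shCTR, and 24.0% and 42.0% in shPCBP2, with 95% Wilson intervals no wider than 40.3% to 43.7%. All 4 EV shares exceeded all 4 cell shares. The log2 ratio of mmu-miR-10b-5p to mmu-miR-10a-5p (0.5 added to each count) was -0.84 ± 0.56 in EVs and -5.75 ± 0.76 in cells (SD, n = 4 each), a difference of 4.91 or 30.1-fold (exact permutation test, two-sided p = 0.0286, the smallest that 4 against 4 allows, and 0.0429 with Benjamini-Hochberg adjustment over the 3 ratios compared). Within shCTR the difference was 4.49 and within shPCBP2 5.33. The test treats shCTR and shPCBP2 libraries as exchangeable, and permuting within shRNA cannot reach a p under 0.05 with this number of libraries. Any pair of miRNAs whose ratios separate fully reaches the same p, and the share of such pairs was not computed.

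The ratio of mmu-miR-196b-5p to mmu-miR-10a-5p, the major miRNAs of each seed, also differed between the compartments. In cells the 2 miRNAs were near equal, with ratios of 1.14 and 1.28 in shCTR and 1.07 and 0.835 in shPCBP2. In EVs mmu-miR-196b-5p was the lower, with ratios of 0.289 and 0.376 in shCTR and 0.285 and 0.345 in shPCBP2. The log2 ratio was lower in EVs by -1.73 (-1.64 ± 0.20 in EVs and 0.10 ± 0.26 in cells, SD, n = 4 each, exact permutation test, two-sided p = 0.0286, adjusted p = 0.0429 over the 3 ratios). This test also treats shCTR and shPCBP2 libraries as exchangeable, and how many other pairs separate as fully was not computed. For mmu-miR-196a-5p against mmu-miR-196b-5p the log2 difference of -2.80 was smaller than the spread in EVs (-6.45 ± 4.69 in EVs and -3.65 ± 0.59 in cells, SD, n = 4 each, exact permutation test, two-sided p = 0.429, adjusted p = 0.429). In the 2 EV libraries that held it, mmu-miR-196a-5p made up 14.0% and 18.1% of the miR-196 counts. The other 2 held 0 counts of 819 and 647, where 3 counts would be a share of 0.366% and 0.464%. These shares cover counting error only and are not upper bounds, since the replicates of these libraries held 173 and 167 counts.

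**Figure D3:**
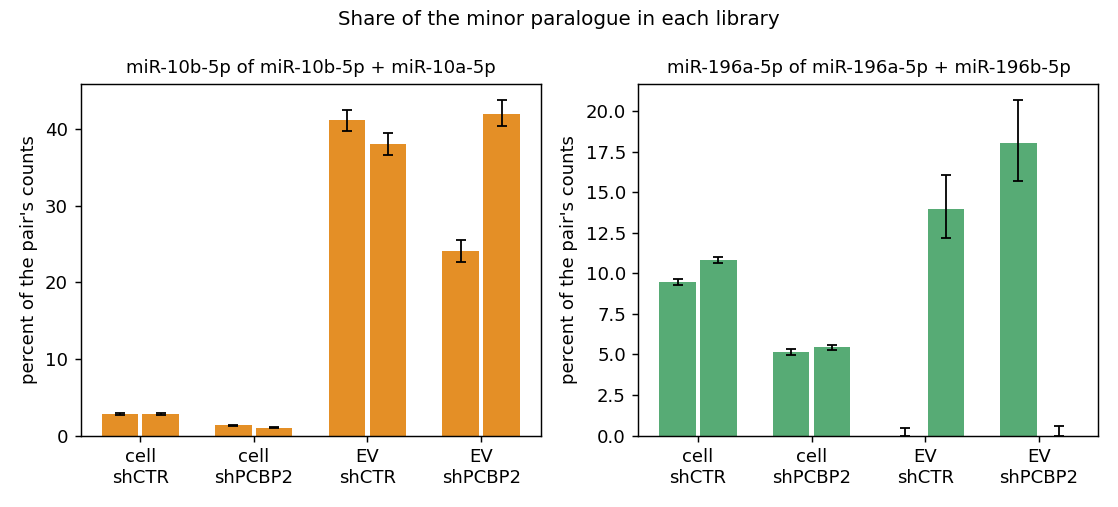
Percent of the paralogue pair's counts held by the minor member in each library, for miR-10 (left) and miR-196 (right); each bar is a library, ordered replicate 1 then 2 within a group, and error bars are 95% Wilson intervals of the counts. miR-10b-5p holds 1.04% to 2.84% in cells and 24.0% to 42.0% in EVs, and miR-196a-5p holds 9.48% and 10.8% in cell shCTR against 5.16% and 5.46% in cell shPCBP2.

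Silencing of PCBP2 was compared next, first within cells, where the question is whether the miRNA pool itself differed. Here the minor paralogues were lower in shPCBP2 and the major ones were nearer to their control level. The spike-in levels of mmu-miR-10b-5p were 129 and 132 in shCTR against 47.5 and 56.9 in shPCBP2, and those of mmu-miR-196a-5p 528 and 708 against 206 and 261. Neither overlapped. The log2 changes were -1.33 (standard error 0.59), 2.51-fold lower, for mmu-miR-10b-5p and -1.41 (standard error 2.53), 2.65-fold lower, for mmu-miR-196a-5p. mmu-miR-196b-5p changed by -0.39 (standard error 0.21), without overlap, and mmu-miR-10a-5p by -0.01 (standard error 0.22), with its 2 shPCBP2 libraries at 3542 and 5402 on either side of shCTR.

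With all 8 libraries in the fit, 0 of the 4 members and 0 of the 180 tested miRNAs (0%) were called in cells (Benjamini-Hochberg adjusted p = 0.425 to 0.997 for the members, edgeR quasi-likelihood test), while 25 miRNAs had an unadjusted p under 0.05 and DESeq2 called 18, none of them a member. This fit estimates 1 spread per miRNA from cells and EVs together. When the fit held only the 4 cell libraries, the changes of mmu-miR-10b-5p and mmu-miR-196a-5p had the same size with standard errors of 0.27 and 0.29, and both were called (Benjamini-Hochberg adjusted p = 3.32e-05 and 5.86e-05, edgeR quasi-likelihood test), whereas mmu-miR-196b-5p and mmu-miR-10a-5p were not (adjusted p = 0.425 and 0.997). With 2 residual degrees of freedom, that fit put the prior degrees of freedom at infinity, so its p-values rest on a spread pooled over the tested miRNAs and not on the replicate spread of each miRNA. In that fit 39 of 180 miRNAs (21.7%) were called lower and 0 higher. By spike-in level, 3 of the 4 members had both shPCBP2 libraries below both shCTR libraries, as did 66.7% of the tested miRNAs. mmu-miR-615-3p, which was not tested, overlapped at 3.70 and 8.45 against 2.78 and 4.21.

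A scaling shifts the log2 changes of all miRNAs nearly alike, so distances from their median are all but fixed by construction. They describe the split between minor and major paralogues and are no check of it. All tested miRNAs had a median log2 change of -0.49 in cells when scaled to the spike-in, and of -0.02, -0.10 and -0.22 with TMM factors, medians of ratios and the total miRNA count. Relative to that median, mmu-miR-10b-5p was lower by between -0.83 and -0.80, mmu-miR-196a-5p by between -0.92 and -0.89, while mmu-miR-10a-5p was higher by 0.48 and mmu-miR-196b-5p by 0.10 to 0.13. The sign of the unadjusted changes of the last 2 flipped with the scaling, to between 0.26 and 0.46 for mmu-miR-10a-5p and to 0.12 and 0.03 for mmu-miR-196b-5p with TMM and median-of-ratios factors. Within the libraries, the log2 ratio of mmu-miR-10b-5p to mmu-miR-10a-5p was lower by -1.29 in shPCBP2 cells and that of mmu-miR-196a-5p to mmu-miR-196b-5p by -1.01. Neither overlapped, and an exact permutation test of 2 against 2 cannot go below 0.333. The ratio of the major miRNAs, mmu-miR-196b-5p to mmu-miR-10a-5p, was also lower, by -0.35, without overlap. A lack of overlap was thus not particular to the minor paralogues, and its share among other pairs of miRNAs was not computed.

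**Figure D4:**
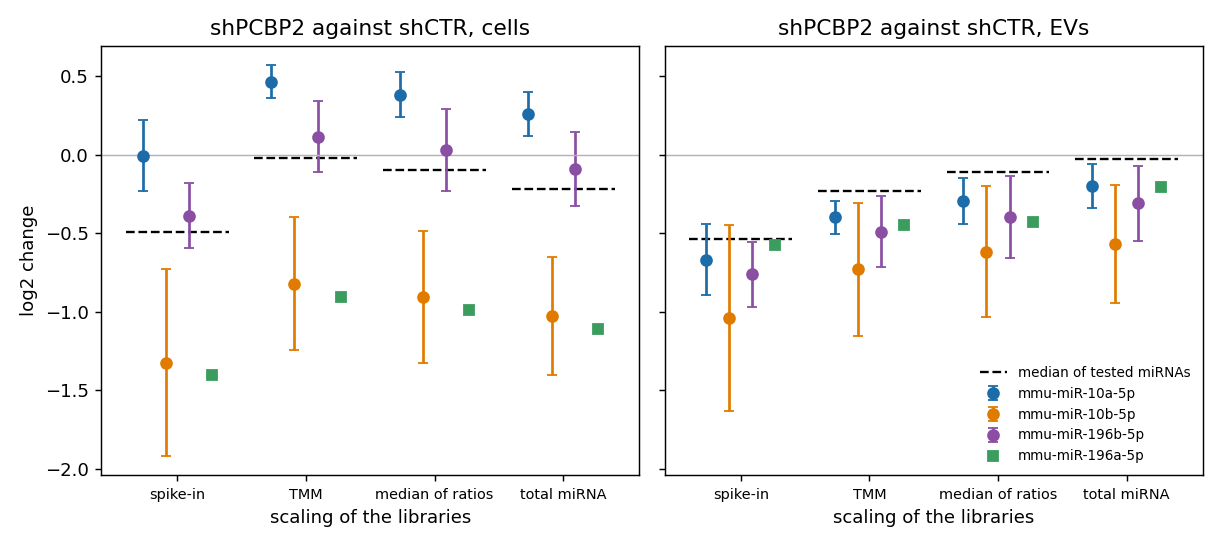
Log2 change of shPCBP2 against shCTR in cells (left) and EVs (right) for the 4 tested Hox-cluster miRNAs under 4 scalings of the libraries (x axis); points carry ± standard error, except mmu-miR-196a-5p (squares), whose standard errors of 2.50 or more exceed the axis, and dashed lines are the median of the 180 tested miRNAs. In cells, mmu-miR-10b-5p and mmu-miR-196a-5p lie below the median and mmu-miR-10a-5p above it under each scaling.

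In EVs, the 3 members that were read in every EV library had lower levels in both shPCBP2 libraries than in both shCTR libraries, and none of them was called by edgeR with all 8 libraries. mmu-miR-196b-5p had spike-in levels of 29.5 and 40.8 with shCTR and of 20.2 and 21.3 with shPCBP2, a log2 change of -0.76 (standard error 0.21). mmu-miR-10a-5p changed by -0.67 (standard error 0.23) and mmu-miR-10b-5p by -1.04 (standard error 0.59), and their levels did not overlap between the groups either. For mmu-miR-10b-5p the change was -0.63 without EV shPCBP2 replicate 1 and -1.62 without replicate 2. Such a lack of overlap in this direction was seen for 42.2% of the tested miRNAs. The adjusted p-values did not pass (Benjamini-Hochberg adjusted p = 0.115, 0.196 and 0.425 in the same order and 0.947 for mmu-miR-196a-5p, edgeR quasi-likelihood test), where 13 of 180 (7.22%) were. DESeq2 called mmu-miR-196b-5p and mmu-miR-10a-5p lower (adjusted p = 0.00711 and 0.0442), with 13.3% of the tested miRNAs called lower. In edgeR, mmu-miR-10a-5p was called without cell shPCBP2 replicate 1 (adjusted p = 0.0485), where 6.67% were called lower. In EVs the 180 tested miRNAs had a median log2 change of -0.54, and relative to it mmu-miR-10a-5p differed by -0.13 and mmu-miR-10b-5p by -0.50, with mmu-miR-196b-5p between them. With 2 libraries of mmu-miR-10b-5p as far apart as 22.4 and 44.7, the spread within EV shPCBP2 was wide.

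The EV/cell ratio itself was then compared between shPCBP2 and shCTR, as the measure of export or retention. It did not differ for any of the 4 members beyond the error. The log2 change of the ratio was -0.66 (standard error 0.32) for mmu-miR-10a-5p, 0.28 (standard error 0.83) for mmu-miR-10b-5p, -0.37 (standard error 0.29) for mmu-miR-196b-5p and 0.83 (standard error 3.53) for mmu-miR-196a-5p. The adjusted p was 0.616 for mmu-miR-10a-5p and 0.992 for the other members (Benjamini-Hochberg adjustment, edgeR quasi-likelihood test), and 4 of 180 tested miRNAs (2.22%) were called. The 95% intervals still allow a change from -1.44 to 0.11 for mmu-miR-10a-5p, from -1.73 to 2.30 for mmu-miR-10b-5p and from -1.09 to 0.34 for mmu-miR-196b-5p. With TMM factors the ratio of mmu-miR-10a-5p was called lower in shPCBP2 (log2 change -0.86, adjusted p = 0.0406), as were 4.44% of the tested miRNAs. The likelihood ratio test of DESeq2, added after the data were seen, called 14 miRNAs and no member (adjusted p = 0.368 to 0.992). These values, like the EV and cell changes above, share the same shCTR libraries and are not independent of them.

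The opposite arms of the same hairpins were rare or unread. mmu-miR-10a-3p was counted 1044 and 839 times in shCTR cells and 768 and 1358 times in shPCBP2 cells, which is 1.16% to 1.39% of the counts of its hairpin arms. In EVs it had 0 counts in 3 libraries and 18 in EV shPCBP2 replicate 2. In shCTR its level in cells was 501-fold the floor of 3 counts in each EV library. That floor covers counting error only, so this fold is not a lower bound on the difference. An EV library would hold 49.3 counts of mmu-miR-10a-3p at the median EV/cell ratio in shCTR. mmu-miR-10b-3p was counted 32 times in a single shCTR cell library and 7 times in a single shPCBP2 cell library, and never in EVs. mmu-miR-196a-1-3p, mmu-miR-196a-2-3p, mmu-miR-196b-3p and mmu-miR-615-5p had 0 counts in all 8 libraries, so every read of miR-196 came from the 5p arm.

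The relatives of miR-10 outside the Hox clusters, the miR-99/100 family, differ from it in the seed and resemble it in the rest of the sequence.
mmu-miR-99a-5p: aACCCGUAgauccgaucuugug
mmu-miR-99b-5p: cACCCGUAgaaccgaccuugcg
mmu-miR-100-5p: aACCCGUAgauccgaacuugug

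Among them, mmu-miR-99a-5p resembled mmu-miR-10b-5p in its levels. Its spike-in levels were 167 and 120 in shCTR cells, 76.7 and 109 in shPCBP2 cells, 100.1 and 106 in shCTR EVs and 78.9 and 62.8 in shPCBP2 EVs, and its log2 EV/cell ratio in shCTR was -0.48 (standard error 0.50). mmu-miR-100-5p, which differs from it by U16A, had a ratio of -4.73 (standard error 0.38), 26.6-fold lower in EVs (Benjamini-Hochberg adjusted p = 5.12e-05, edgeR quasi-likelihood test), and mmu-miR-99b-5p of -4.96 (standard error 0.29, adjusted p = 1.28e-05). As in the miR-10 pair, the miRNA with fewer reads in cells was thus the one with the higher ratio. The cell level is the denominator of that ratio, so this order is partly fixed by construction. Mean spike-in levels in shCTR EVs were closer together, at 103 for mmu-miR-99a-5p, 124 for mmu-miR-99b-5p and 77.2 for mmu-miR-100-5p. Whether the members of this family differ from each other was not tested. The miR-196 pair had fewer cell reads with a higher ratio in shPCBP2 and not in shCTR. The minor mmu-miR-196a-5p had -7.54 (standard error 3.30) against -7.27 for mmu-miR-196b-5p in shCTR, and -6.71 (standard error 3.18) against -7.64 in shPCBP2. None of the 3 miR-99/100 miRNAs was called for shPCBP2 against shCTR in cells, in EVs or in the ratio. In cells the most abundant, mmu-miR-99b-5p, had the largest log2 change, at -1.17 (standard error 0.25). The changes were -0.63 (standard error 0.50) for the least abundant, mmu-miR-99a-5p, and -0.39 (standard error 0.33) for mmu-miR-100-5p.

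The 3 tested miRNAs with the closest profile over the 8 libraries (distance between log2 spike-in levels, each centred on its own mean, among 120 other miRNAs read in every library) differed for each member. For mmu-miR-10a-5p they were mmu-miR-103-3p, mmu-miR-224-5p and mmu-let-7f-5p, at distances of 0.43 to 0.56. For mmu-miR-196b-5p they were mmu-miR-21a-5p, mmu-miR-27b-3p and mmu-miR-130a-3p, at 0.64 to 0.79. For mmu-miR-10b-5p they were mmu-miR-423-3p, mmu-miR-99a-5p and mmu-miR-423-5p, at 1.37 to 1.59, and its own paralogue mmu-miR-10a-5p ranked 80 of 120, at a distance of 7.14. These distances are a description, since all the profiles share the same libraries.

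Markers of blood and mesenchymal cells were higher in the compartment in which mmu-miR-10b-5p had its high share. A list of 8 miRNAs of blood cells, which serum can also carry, summed to spike-in levels of 8.56 to 27.7 in the cell libraries, where 3 or 4 of the 8 were read and mmu-miR-451a, mmu-miR-144-3p and both arms of mmu-miR-142a were at 0. In the EV libraries it summed to 2135 to 2806, with 7 or 8 of the 8 read, and all 4 tested miRNAs of the list were called higher in EVs in both shCTR and shPCBP2, as were 6.67% and 7.78% of the 180. A mesenchymal list of 5 summed to 6.63 to 21.8 in cells and 83.9 to 173 in EVs, with 4 of 4 tested called higher, and the endothelial pair, mmu-miR-126a-3p and mmu-miR-126a-5p, to 110 to 170 in cells and 101 to 187 in EVs, with neither called. The 5 hepatocyte miRNAs summed to 13026 to 20416 in cells and 208 to 327 in EVs, most of it mmu-miR-194-5p, but they split between the compartments. mmu-miR-194-5p and mmu-miR-192-5p were called lower in EVs in both shCTR and shPCBP2, as were 59.4% and 60% of the 180. mmu-miR-148a-3p was called higher in shPCBP2 (log2 EV/cell ratio 4.39) and not in shCTR (2.70). mmu-miR-122-5p and mmu-miR-101a-3p were not called. The liver miRNA mmu-miR-122-5p was read in every library with 356 to 485 counts in cells and 795 to 2327 in EVs. Small RNA from serum or other cells has the same mature sequence where the miRNA is conserved, and the part of such RNA in the EV level of mmu-miR-10b-5p or the other members was not tested. In bulk libraries like these, fewer cells or EVs with a miRNA and less of it in each cannot be told apart.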

How the data were processed

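Small RNA of 3A cells and of their EVs was measured in 8 libraries. The authors prepared the libraries with a small RNA kit, trimmed adapters, dropped reads that were short or of low quality, aligned the forward reads to miRBase hairpins plus the spike-in with mirPRo and NovoAlign, and deposited raw counts of reads per mature miRNA, not normalized. Counts above 999999 are printed to 6 significant digits. Groups and replicate numbers follow the sample titles. For shPCBP2 the columns number the libraries otherwise than the titles do (1 and 3 in cells, 2 and 3 in EVs), so which libraries share a number is uncertain. The members and lists were chosen with earlier results of these data known.

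From the counts, miRNAs with at least 1 read in 2 or more cell and 2 or more EV libraries were tested (180), with library sizes set to the cel-miR-39-3p count, by the quasi-likelihood test of edgeR 4.0.16 in R 4.3.3 over all 8 libraries, with a call at an adjusted p under 0.05. The fit had a common dispersion of 0.693, 4 residual and 2.10 prior degrees of freedom, and standard errors derived from the F statistic are approximate. The authors used DESeq2 with spike-in size factors and a likelihood ratio test of the EV/cell ratio. The alternative here is the Wald test of DESeq2 1.42.0, and their kind of test was added for that ratio. Ratios within a library had 0.5 added to each count and were tested by exact permutation with numpy 2.4.6 in Python 3.11.15. Wilson intervals came from scipy 1.17.1. Other alternatives were TMM and median-of-ratios factors, the total miRNA count, no filter, at least 10 counts in every library, the replicate number as a block, only the 4 libraries compared, and each library left out. The fit was also run on simulated data, which took their means and dispersion from the main fit. Named miRNAs are the members, the opposite arms of their hairpins, miR-99a, miR-99b and miR-100, the 3 closest profiles of each member read in all libraries, and the marker lists.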

Additional observations from a re-analysis of the deposited data

How the results depend on the processing

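In cells, 0 tested miRNAs were called by edgeR for shPCBP2 against shCTR (25 at an unadjusted p under 0.05), but 5 with TMM factors, 1 with median-of-ratios factors, 3 with the total miRNA count, 8 with at least 10 counts in every library, 18 with DESeq2 and 39, among them 2 members, with only the 4 cell libraries. In EVs, 13 were called, but 7 with no filter or with at least 10 counts, 27, among them 2 members, with DESeq2 and 1 with only the 4 EV libraries. For the EV/cell ratio, 4 were called, but 13, among them 1 member, with TMM factors, 2 with median-of-ratios factors, 0 with at least 10 counts (6 at an unadjusted p under 0.05) and 14 with DESeq2 by either its Wald or, added after seeing the data, its likelihood ratio test. For EVs against cells in shCTR, 119 were called, but 76 with median-of-ratios factors, 75 with the total miRNA count and 294 of 800 with no filter, which also gave 294 in shPCBP2, against 122. The cause of these differences was not tested, except that no filter tests more miRNAs and the other filter fewer.

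Signs turned with the scaling in the order TMM, median-of-ratios, total count for mmu-miR-10b-5p in EVs against cells (3.85, 3.86 and 4.07 in shCTR, 3.94, 4.15 and 4.53 in shPCBP2) and for mmu-miR-10a-5p in cells (0.46, 0.38 and 0.26), and with the first 2 for mmu-miR-196b-5p in cells (0.12 and 0.032).

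Leaving out each library in turn gave 0 to 1 members and 1 to 21 miRNAs called in EVs, 0 to 11 called for the EV/cell ratio, and log2 changes of -0.34 to 0.27 for mmu-miR-10a-5p in cells, -9.19 to 8.72 for mmu-miR-196a-5p in EVs, and -0.30 to 0.70 for mmu-miR-10b-5p and -7.78 to 10.1 for mmu-miR-196a-5p in the EV/cell ratio. In EVs, 1 was called without either cell shCTR replicate, 8 without EV shCTR replicate 2 and 21 without EV shPCBP2 replicate 1. For the EV/cell ratio edgeR called 0 without either cell shCTR replicate or cell shPCBP2 replicate 2 (11 to 17 at an unadjusted p under 0.05), 2 without cell shPCBP2 replicate 1, 11 without replicate 1 of either EV group and 7 without replicate 2. The extremes for mmu-miR-196a-5p came without EV shPCBP2 replicate 1 and EV shCTR replicate 2, which held its EV reads and left a single library at 0, and those for mmu-miR-10b-5p without EV shPCBP2 replicate 2 and 1. A left-out group keeps 1 library, which is then assumed to vary like the others.

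Deviations from the group means of equally numbered libraries (numbers of the titles) correlated at -0.51 between shCTR and shPCBP2 cells and at -0.09 to 0.04 for the other pairs of groups, so the numbers were not taken as pairs. The fit with a replicate block called 0 miRNAs in cells (18 at an unadjusted p under 0.05), 2 in EVs and 1 for the EV/cell ratio, and no member that the fit without it did not. With the numbers of the columns as the replicate block, also added after seeing the data, 0 were called in cells, in EVs and for the ratio (13, 32 and 9 at an unadjusted p under 0.05), mmu-miR-196a-5p was called lower in EVs (adjusted p = 0.0482 in shCTR and 0.0463 in shPCBP2), and its change turned to 0.29 in cells and -0.66 in the ratio. With the numbers crossed in cells, added after seeing the data, 0 were called, with 26 at an unadjusted p under 0.05. The ratio of mmu-miR-10b-5p to mmu-miR-10a-5p differed by 4.64 to 5.19 between EVs and cells without each library, and permuting within shRNA or within the replicate number gave p = 0.0556, the smallest that this exact permutation allows. In EVs mmu-miR-196a-5p and mmu-miR-615-3p had 0 counts in 2 and 4 of the 4 libraries. The depth limits what can be said of mmu-miR-615-3p. For mmu-miR-196a-5p the zeros stood beside 173 and 167 counts in the replicates, and their cause was not tested.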
